A study of Mus musculus with 60 samples.

Results

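The 38 genes described here encode the enzymes and proteins that add, remove and read histone acetylation. They were chosen by name: 18 erasers (the histone deacetylases Hdac1 to Hdac11 and the sirtuins Sirt1 to Sirt7), 10 writers (the acetyltransferases Kat2a, Kat2b, Kat5, Kat6a, Kat6b, Kat7, Kat8, Crebbp, Ep300 and Hat1), 6 bromodomain proteins (Brd1, Brd2, Brd3, Brd7, Brd8 and Brd9) and 4 corepressor scaffolds (Ncor1, Sin3a, Sin3b and Rcor1). Of the 38 genes, 24 had at least 1 peak of either mark assigned to their symbol, among 16994 symbols with a peak in the series, and their 430 peaks were drawn from 256375 in all.

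The samples were CUT&RUN-seq libraries, in which an antibody bound in isolated nuclei directs a nuclease to release the DNA around a histone mark. Nuclei came from hippocampi of male Emx1-NuTRAP mice, in which Cre recombinase under Emx1 switches on tags on the nuclei and ribosomes of Emx1-expressing, mainly excitatory, neurons. All groups carried this genotype and none had memory training. Between postnatal days 21 and 41 the mice either ran on a wheel (early-life exercise, called exercised here) or stayed sedentary. In the SIT arm (simultaneous isolation) nuclei and RNA were taken from 1 homogenate of both hippocampi, and in the separate arms nuclei alone were taken, from the left side (left separate) or the right (right separate). The labels gave 4 samples per antibody and condition in SIT and 3 in each separate arm, 60 in all, of which 20 were IgG controls. The files hold 12 peak lists, a pooled list for each mark, condition and arm, with positions and assigned genes but no counts, so that the depth of each list is unknown and each list is a single value with no replicate error and no test. The lists held between 12168 and 38136 H4K8ac peaks and between 9899 and 25693 H3K27me3 peaks. H4K8ac peaks were assigned in some list to 9 of 10 markers of excitatory neurons, 4 of 9 of inhibitory neurons, 6 of 6 of astrocytes, 3 of 6 of oligodendrocytes, 3 of 5 of microglia and 1 of 4 of endothelial cells, and H3K27me3 peaks to 2, 9, 4, 3, 2 and 3 of them. Among the markers of the other cell types, Dlx2, Aqp4, Mbp, P2ry12 and Pecam1 had H4K8ac in all 6 lists, and Gad2, Slc32a1, Pvalb, Dlx1, Lhx6, Olig1, Olig2, Sox10, Cx3cr1, Tmem119, Cldn5, Tek and Flt1 had it in none. The part of other cells in the values below was not tested.

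Acetyltransferases transfer an acetyl group to lysines of histone tails, which loosens the hold of the tails on DNA and makes a docking site for bromodomains. Deacetylases of classes I, II and IV remove the group with zinc, sirtuins remove it with NAD, and many of the zinc enzymes act only inside complexes built on scaffolds such as NCoR, SIN3 and CoREST. In the hippocampus these enzymes are best known for setting how readily genes of memory formation are transcribed. H4K8ac, an acetylation of histone H4 found at active genes, is itself a product of such writers, and H3K27me3, a methylation laid down by Polycomb complexes, marks repressed genes. The genes of the acetylation machinery are therefore read here as carriers of the marks, gene by gene.

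H4K8ac peaks were assigned to 21 of the 38 genes and H3K27me3 peaks to 8. The 2 marks were divided among the genes: 16 had H4K8ac alone, 3 (Kat2b, Brd3 and Brd7) had H3K27me3 alone, 5 (Hdac2, Hdac4, Sirt1, Kat5 and Brd1) had each mark in some list, and 14 had neither. By role, H4K8ac was found at 12 of 18 erasers, 4 of 10 writers, 3 of 6 bromodomain genes and 2 of 4 scaffolds, and H3K27me3 at 3, 2, 3 and 0 of them. Over all 21924 protein-coding genes of the GENCODE M21 annotation, 52.0% had an H4K8ac peak in some list and 28.1% an H3K27me3 peak, against 55.3 and 21.1% of the 38 genes. Only Hdac4, Hdac9, Hdac10, Hdac11 and Kat6b of the 38 had H4K8ac in all 6 lists (13.2%, with 12.4% of all protein-coding genes), and only Kat2b and Brd7 had H3K27me3 in all 6 (5.26%, with 10.7% of all protein-coding genes).

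**Figure D1:**
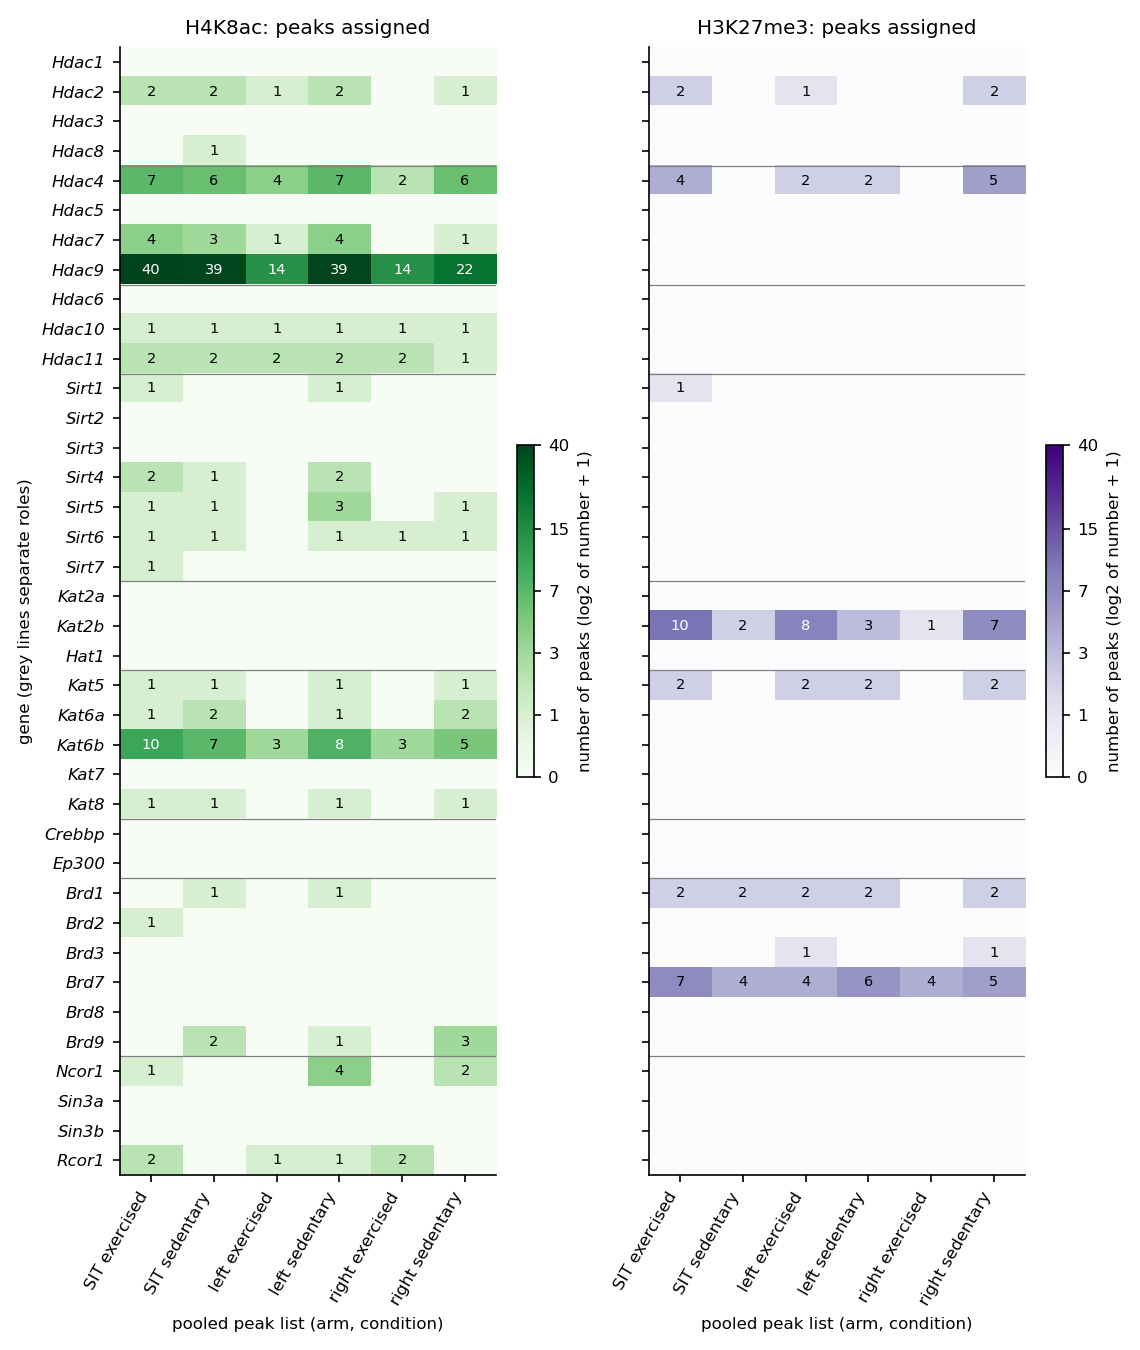
Number of peaks assigned to each of the 38 genes (rows, grouped by role) in each of the 12 pooled lists (columns), H4K8ac on the left and H3K27me3 on the right, with a log2 colour scale and blank cells for no peak. Hdac9 leads the H4K8ac panel with 14 to 40 peaks a list, Kat2b and Brd7 are the only rows filled throughout the H3K27me3 panel, and 14 rows are blank in both.

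The number of these genes with a peak differed between lists of unlike length. With H4K8ac, 18 of the 38 genes were found in the exercised and 16 in the sedentary SIT list, 8 in the exercised and 18 in the sedentary left separate list, and 7 in the exercised and 14 in the sedentary right separate list. The longest lists, SIT exercised with 38136 peaks and left separate sedentary with 36425, held the most of the genes, and the shortest, left and right separate exercised with 12168 and 13715, the fewest. As shares, 18.4 to 47.4% of the 38 genes had H4K8ac in a list, where 19.6 to 41.2% of all protein-coding genes did. With H3K27me3, the exercised and sedentary lists held 7 and 3 of the genes in SIT, 7 and 5 in left separate and 2 and 7 in right separate. These shares, 5.26 to 18.4%, were below those of all protein-coding genes in each of the 6 lists, which were 13.3 to 24.5%. By the methods, 1 of the 4 exercised SIT libraries of H4K8ac and 3 of the 6 exercised libraries of the separate arms were excluded for a high false discovery rate. How those 3 divide between left and right is not given in the sources used here. The part of list length and of the excluded libraries in these differences was not tested.

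**Figure D2:**
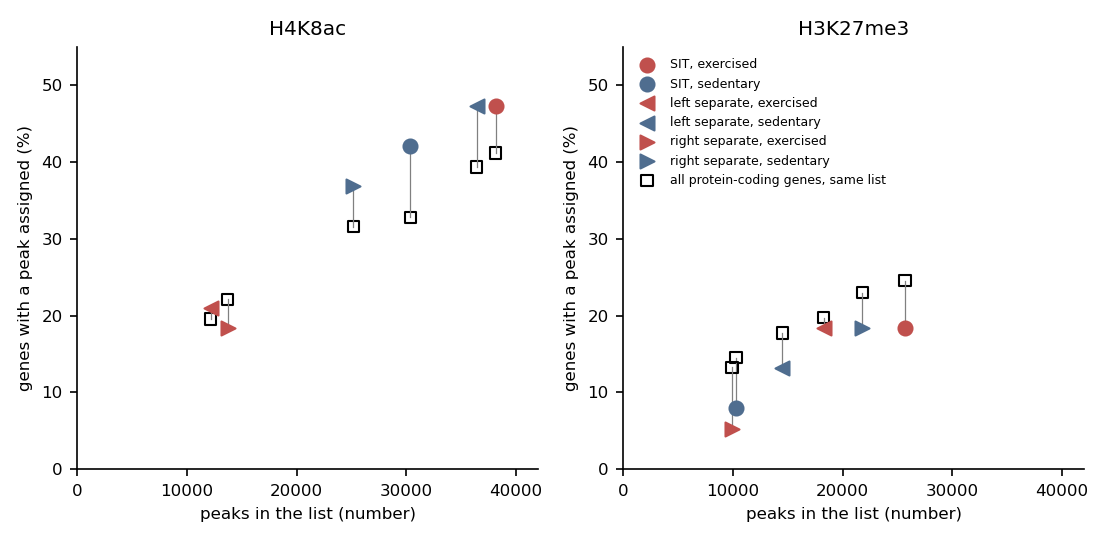
Percent of genes with a peak assigned (vertical axis) against the number of peaks in the list (horizontal axis), for the 38 genes (coloured symbols, by arm and condition) and for all protein-coding genes in the same list (open squares, joined by a line). The 38 genes lie above all genes in 5 of the 6 H4K8ac lists and below them in all 6 H3K27me3 lists, and the shares of all protein-coding genes climb with list length. The share of the 38 genes does not climb throughout, being 21.1% at 12168 and 18.4% at 13715 H4K8ac peaks.

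A gene was called gained in an arm if only the exercised list had a peak assigned to it, lost if only the sedentary list had, and shared if both had. For H4K8ac in SIT, 5 genes were gained (Sirt1, Sirt7, Brd2, Ncor1 and Rcor1), 3 were lost (Hdac8, Brd1 and Brd9) and 13 were shared. That is 23.8 and 14.3% of the 21 genes found in either list, beside 27.5% gained and 10.1% lost among the 11952 genes of all kinds. In left separate 0 genes were gained and 10 were lost (55.6% of 18), beside 3.58% gained and 51.9% lost among all genes. In right separate 1 gene was gained, Rcor1, and 8 were lost (53.3% of 15), beside 9.14% gained and 36.7% lost. The 3 libraries excluded from the separate arms were all of exercised mice. Astrocyte markers had 3 genes gained and 0 lost of 4 found in SIT, 0 and 4 of 6 in left separate and 0 and 2 of 3 in right separate, and excitatory markers 1 and 0 of 8, 0 and 2 of 8 and 1 and 1 of 9. The part of astrocytes in the calls of the 38 genes was not tested. For H3K27me3, 4 genes were gained and 0 lost in SIT (Hdac2, Hdac4, Sirt1 and Kat5), 2 were gained and 0 lost in left separate (Hdac2 and Brd3), and 0 were gained and 5 lost in right separate (Hdac2, Hdac4, Kat5, Brd1 and Brd3). The background was 41.4% gained and 1.02% lost in SIT, 18.5 and 9.13% in left separate, and 3.12 and 43.6% in right separate. The direction of each comparison was thus that of all genes in the same pair of lists. With the longer list of a pair reduced to the number of peaks in the shorter, the right separate difference ended for H4K8ac, at 3 gained and 3 lost, left separate had 4 gained and 6 lost, and H3K27me3 in left separate had 0 gained and 0 lost.

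Class I deacetylases include nuclear catalytic subunits of the corepressor complexes. Among them Hdac1 and Hdac3 had no peak of either mark. The class I gene Hdac8 had a single H4K8ac peak, of 1150 bp in an intron, in the SIT sedentary list. Hdac2, a brake on memory-related transcription in hippocampal neurons, lies at chr10:36974544-37001889 on the plus strand. It had 2, 1 and 0 H4K8ac peaks in the exercised SIT, left and right lists and 2, 2 and 1 in the sedentary ones. A peak over its start or ending within 76 bp of it was found in the SIT and left exercised lists and in the left and right sedentary lists. H3K27me3 assigned to Hdac2 lay far from the gene, 137.0 to 218.8 kb before its start or, in a single case, beyond its end and 30.9 kb from an assigned start inside the gene, and was found in 3 lists (SIT exercised, left exercised and right sedentary). None of these 5 peaks overlapped the gene itself.

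Class IIa deacetylases shuttle between cytoplasm and nucleus with neuronal activity and bind MEF2 factors. Hdac9, the longest of the 38 genes at 869.5 kb (chr12:34047580-34917095, minus strand), carried 168 of the 330 H4K8ac peaks of the whole set, 50.9%. Its exercised lists held 40 peaks in SIT, 14 in left and 14 in right, and its sedentary lists 39, 39 and 22. Added together these peaks spanned 89.2, 30.1 and 28.5 kb in the exercised lists and 65.8, 81.2 and 59.3 kb in the sedentary ones. All H4K8ac peaks together moved the same way, covering 80.3, 25.8 and 24.5 Mb in the exercised and 46.4, 65.9 and 56.1 Mb in the SIT, left and right sedentary lists. Of the 168 peaks 138 were intronic and 23 were of the Promoter class, which the annotation gives to peaks within 3 kb of a transcript start, and they ran from 8.18 to 719.0 kb into the gene. Merging peaks that overlap by at least 1 bp gave 64 regions along Hdac9. Of these, 5 were found in all 6 lists, 29 in a single list, 7 in exercised lists alone and 26 in sedentary lists alone. Of all H4K8ac regions of the series, 5.99, 49.9, 19.3 and 37.6% were of these kinds, in that order. The 5 recurrent regions lay 126.3, 302.0, 389.8, 419.8 and 442.4 kb into the gene. In the first 4 of them 915 to 2009 bp were covered in every list, and in the last no base was, its peaks being linked only by overlaps between some lists. The median GC content of Hdac9 peaks was 38.1%, against 43.9% for all H4K8ac peaks and 48.0% for the peaks of the other genes of the set.

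The first start of Hdac9 carried no H4K8ac peak in any list, but a RefSeq start inside the gene, at position 34528889 of chromosome 12, lay inside a peak in all 6. The 250 bases before that internal start are printed because, of the 33 genes with a RefSeq window, only Hdac9 and Hdac11 had a RefSeq start marked in all 6 lists. Hdac10, whose annotated starts were also marked in all 6, has no window in the table used, nor have Hdac1, Hdac3, Kat6a and Brd8. They come from RefSeq on GRCm38, minus strand, chr12:34528890-34529139, and hold 2 CG dinucleotides and no TGACG, the core of the cAMP response element.
Hdac9: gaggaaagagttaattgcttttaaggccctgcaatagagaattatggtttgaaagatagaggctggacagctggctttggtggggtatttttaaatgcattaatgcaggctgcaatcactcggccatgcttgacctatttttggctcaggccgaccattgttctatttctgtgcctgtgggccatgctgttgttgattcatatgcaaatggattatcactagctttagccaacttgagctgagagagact

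Hdac4 (chr1:91928779-92195699, minus strand), a class IIa enzyme linked to synaptic gene repression, had H4K8ac in all 6 lists, with 7, 4 and 2 peaks in the exercised SIT, left and right lists and 6, 7 and 6 in the sedentary ones. Their summed width was 12.8 kb in the exercised against 6.50 kb in the sedentary SIT list, 6.73 against 9.74 kb in left separate and 2.87 against 13.0 kb in right separate. The single Hdac4 region found in all 6 lists lay beyond the end of the gene, at chr1:91872066-91874501. H3K27me3 lay beyond the end too, in 13 distal intergenic peaks 22.0 to 65.3 kb from the assigned start, in both left lists, SIT exercised and right sedentary. In the SIT exercised list an H3K27me3 peak ran 856 bp into that recurrent H4K8ac peak, the only base overlap of the marks among the 38 genes within an arm and condition. Hdac7 had H4K8ac in 5 lists (4, 1 and 0 peaks in the exercised and 3, 4 and 1 in the SIT, left and right sedentary lists) and no H3K27me3, and Hdac5 had neither.

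Of the class IIb and IV enzymes, the cytoplasmic tubulin deacetylase Hdac6 had no peak, while Hdac10, which acts on polyamines, and Hdac11, which also removes fatty acyl groups, were among the most constant genes of the set. Hdac10 (chr15:89123307-89128700, minus strand) had a single H4K8ac peak over its start in each of the 6 lists, with widths of 1946, 1429 and 1692 bp in the exercised and 1199, 1510 and 1133 bp in the SIT, left and right sedentary lists. In 4 of those lists another peak over Hdac10 was given to its neighbour Tubgcp6. Hdac11 (chr6:91156665-91174692, plus strand) had a peak over its start in all 6 lists, and its summed width was 8053, 5401 and 3549 bp in the exercised and 5838, 5759 and 6809 bp in the sedentary lists. Exercised exceeded sedentary at Hdac10 in SIT and right separate and at Hdac11 in SIT alone. From the Hdac11 window before the RefSeq start, at 91156815 of chromosome 6, the 100 bases that lie in no annotated exon are printed as the counterpart of the Hdac9 start, since both were marked in all 6 lists (GRCm38, plus strand, chr6:91156565-91156664). They hold 6 CG dinucleotides.
Hdac11: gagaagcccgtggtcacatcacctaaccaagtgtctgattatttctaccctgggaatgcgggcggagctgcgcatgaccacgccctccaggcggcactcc

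H4K8ac peaks were assigned to 5 of the 7 sirtuins and H3K27me3 to Sirt1 only. Sirt4 and Sirt5, which encode mitochondrial enzymes, had 2, 0 and 0 and 1, 0 and 0 H4K8ac peaks in the exercised SIT, left and right lists and 1, 2 and 0 and 1, 3 and 1 in the sedentary ones. None of the Sirt4 peaks overlapped the gene itself. Sirt6, a chromatin enzyme of DNA repair, had a single peak over its start in 5 lists, all but left exercised. Sirt7, a nucleolar enzyme, had a peak in the SIT exercised list alone, of 828 bp, and Sirt2 and Sirt3 had none. Sirt1 (chr10:63319005-63381704, minus strand), the deacetylase best known for its tie to energy state, was called gained in SIT, on an exon peak of 1906 bp, and lost in left separate, on an intron peak of 1270 bp. Those calls turned on how peaks were assigned: the outermost annotated start of Sirt1, at 63381704, lay inside an H4K8ac peak in all 6 lists, and in each list that peak had been given to the gene on the other side, Dnajc12. The RefSeq start of Sirt1, at 63339035, was inside no peak.

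The MYST acetyltransferases, 5 of the writers, contrasted with the other writers: 4 of 5 had H4K8ac, where Kat2a, Kat2b, Hat1, Crebbp and Ep300 had none. Kat6b (chr14:21481434-21672478, plus strand), an H3 acetyltransferase, had H4K8ac in every list, with 10, 3 and 3 peaks in the exercised SIT, left and right lists and 7, 8 and 5 in the sedentary ones. Their width summed to 20.3 against 12.8 kb in SIT, 10.3 against 14.2 kb in left separate and 6.13 against 9.68 kb in right separate, exercised first. Only 2 of its 36 peaks were of the Promoter class, 20 were intronic and 14 exonic, and its 2 recurrent regions were centred 128.8 and 177.9 kb into the gene. Kat5 and Kat8, the catalytic subunits of the Tip60 and MOF complexes and both H4 acetyltransferases, showed the same list pattern: a single H4K8ac peak over the start in SIT exercised and in all 3 sedentary lists, and none in left or right exercised. The Kat5 peaks measured 2408 bp in SIT exercised and 2090, 2067 and 2248 bp in the SIT, left and right sedentary lists. The Kat8 peaks measured 1407 bp and 1176, 1888 and 1455 bp. Each gene was therefore shared in SIT and lost in both separate arms. Sirt5 had a peak over an annotated start in the same 4 lists and in no other.

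The bases before the Kat5 and Kat8 starts are printed as those of H4 acetyltransferases with this pattern. TGACG, or its reverse complement CGTCA, is in capitals, and the RefSeq window of Sirt5 holds neither. Kat8 is shown over 250 bases, at chr7:127912267-127912516 on the plus strand, and Kat5 over the 62 bases outside annotated exons before an internal RefSeq start at 5609744, at chr19:5609790-5609851 on the minus strand, which lie inside the gene and after its outermost start at 5610237, both GRCm38 from RefSeq.
Kat8: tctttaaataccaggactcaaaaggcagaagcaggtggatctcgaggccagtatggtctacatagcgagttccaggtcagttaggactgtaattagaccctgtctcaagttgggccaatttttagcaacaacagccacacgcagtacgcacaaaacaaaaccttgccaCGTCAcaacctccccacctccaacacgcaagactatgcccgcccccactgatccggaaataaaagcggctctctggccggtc
Kat5: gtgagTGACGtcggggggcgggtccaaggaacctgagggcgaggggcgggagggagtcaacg
TGACG on either strand was found in 17 of the 48 RefSeq windows of the set (33 genes matched), which run from 250 bases before to 50 bases after a start, 35.4% against 20.8% of all 32851 windows. The full element TGACGTCA, which also contains TGACG, was in 0 of 48 windows and in 1.79% of all. The windows of the set held a median of 21.5 CG dinucleotides and all windows a median of 7.0, so that the shares compare windows of unlike base composition. Letters found in a window are a description and not a site.

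Kat6a (chr8:22859535-22943259, plus strand), a paralog of Kat6b that serves as the catalytic subunit of the same kind of complex, had 1, 0 and 0 H4K8ac peaks in the exercised SIT, left and right lists and 2, 1 and 2 in the sedentary ones, and so was shared in SIT and lost in both separate arms. A region in the gene, from 16.6 to 19.4 kb after its start, was found in all 3 sedentary lists and in no exercised list. The bases covered in all 3 ran over 1431 bp, at chr8:22877006-22878436. This was 1 of 2 such regions among the 137 merged H4K8ac regions of the set, the other being at Brd9, where 0.847% of all 63514 H4K8ac regions of the series were of this kind. The central 200 bases of the stretch are printed as the interval present in sedentary lists alone (GRCm38, plus strand, chr8:22877622-22877821, 3 CG dinucleotides, no TGACG).
Kat6a: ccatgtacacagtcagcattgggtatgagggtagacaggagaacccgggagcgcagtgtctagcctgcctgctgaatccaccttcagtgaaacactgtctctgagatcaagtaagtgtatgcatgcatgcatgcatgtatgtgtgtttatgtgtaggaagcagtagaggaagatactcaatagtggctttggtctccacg

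Kat2b, the PCAF acetyltransferase (chr17:53566861-53672720, plus strand), stood apart from every other writer in having H3K27me3 in all 6 lists and no H4K8ac in any. It had 10, 8 and 1 H3K27me3 peaks in the exercised SIT, left and right lists and 2, 3 and 7 in the sedentary ones. The summed width was 55.4 kb against 19.3 kb in SIT, 32.7 against 18.2 kb in left separate and 1.52 against 30.3 kb in right separate, exercised first. All H3K27me3 peaks together had the same order, with 135.6 against 72.3 Mb in SIT, 92.4 against 73.9 Mb in left separate and 41.2 against 114.5 Mb in right separate. Most of the mark lay within the gene and not at its first start, which was inside no peak. Peaks of all 6 lists merged into a region of 30.1 kb toward the end of the gene, at chr17:53647439-53677550, of which 1517 bp were covered in every list, the whole width of the single right exercised peak. Peaks of all lists but right exercised merged into another of 10.5 kb at chr17:53574577-53585046, with 2671 bp covered in each of the 5. This second region reached a RefSeq start at 53584126, which lay inside an H3K27me3 peak in the left exercised and left sedentary lists. That start was the only RefSeq start of the set inside an H3K27me3 peak (2.08% of 48 windows, with 12.2% of all windows), and the 250 bases before it are printed for that reason (GRCm38, plus strand, chr17:53583876-53584125, 5 CG dinucleotides, no TGACG).
Kat2b: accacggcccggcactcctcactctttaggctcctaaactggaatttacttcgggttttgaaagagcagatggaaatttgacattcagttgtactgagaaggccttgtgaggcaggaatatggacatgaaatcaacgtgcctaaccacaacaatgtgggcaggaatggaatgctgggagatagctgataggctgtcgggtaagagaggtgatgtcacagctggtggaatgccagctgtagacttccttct

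**Figure D3:**
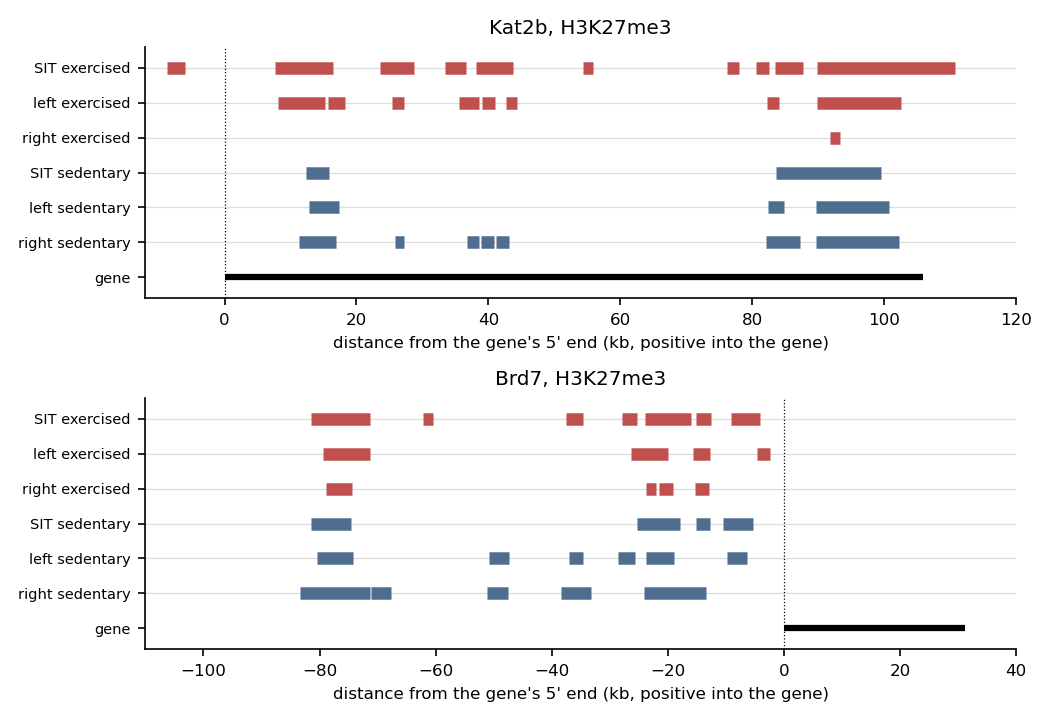
Positions of H3K27me3 peaks assigned to Kat2b (top) and Brd7 (bottom) in the 3 exercised (red) and 3 sedentary (blue) lists, as distance in kb from the start of the gene, with the gene as a black bar. Kat2b peaks fill the inside of the gene, most constantly near its end, whereas all Brd7 peaks lie before its start.

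Kat5 also had H3K27me3, in 2 peaks in each of the SIT exercised, left exercised, left sedentary and right sedentary lists. These peaks began 2.23 to 2.89 kb or 6.28 to 9.51 kb before the start, outside the gene, and 1.02 to 1.81 kb from the H4K8ac peak in the 3 pairs of lists where both marks were called. CBP and p300, encoded by Crebbp and Ep300 and the main writers of H3K27 acetylation at enhancers, had no peak of either mark assigned in any list. The nearest H4K8ac peak was 2.24 kb from Crebbp and 41.0 kb from Ep300, and the nearest H3K27me3 peak 241.3 and 400.8 kb away.

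Among the bromodomain genes, Brd7, a subunit of the PBAF remodelling complex, had H3K27me3 in all 6 lists, with 7, 4 and 4 peaks in the exercised SIT, left and right lists and 4, 6 and 5 in the sedentary ones. Their width summed to 33.1 against 21.9 kb in SIT, 19.9 against 23.1 kb in left separate and 10.8 against 35.0 kb in right separate, exercised first. Of the 30 peaks 29 were distal intergenic, all lay before the gene (chr8:88331039-88362194, minus strand), and 2 of its regions, centred 20.6 and 77.4 kb before the start, drew peaks from all 6 lists, with 3351 and 4194 bp covered in every list. No Brd7 peak reached the gene, so the symbol here names the nearest start only. Brd1, the scaffold of a MYST complex, was similar: 10 H3K27me3 peaks, 2 in every list but right exercised, all of them 36.6 to 47.9 kb from the assigned start. It also had an H4K8ac peak, likewise beyond the gene, of 1183 bp in SIT sedentary and of 820 bp in left sedentary. Brd3, a BET protein, had an H3K27me3 peak of 2174 bp in left exercised and of 2159 bp in right sedentary, at overlapping positions in an intron.

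Brd9, a subunit of the non-canonical BAF complex (chr13:73937811-73960895, plus strand), was the only gene of the 38 called lost for H4K8ac in all 3 arms, beside 99 of the 21924 protein-coding genes (0.452%). It had no H4K8ac peak in any exercised list and 2, 1 and 3 in the SIT, left and right lists of sedentary mice, with summed widths of 3639, 2534 and 4624 bp. Of its 6 peaks 5 were of the Promoter class. In right sedentary a peak of 1421 bp lay over the first start. The other peaks formed a region 6939 bp long in the gene, where GENCODE M21 has no protein-coding start. A stretch of 194 bp in this region was covered in all 3 sedentary lists. It is printed whole (GRCm38, plus strand, chr13:73953388-73953581, 1 CG dinucleotide, no TGACG). When each list was reduced to its widest 50% of peaks, or the longer list of a pair to the number in the shorter, Brd9 was lost in 2 arms.
Brd9: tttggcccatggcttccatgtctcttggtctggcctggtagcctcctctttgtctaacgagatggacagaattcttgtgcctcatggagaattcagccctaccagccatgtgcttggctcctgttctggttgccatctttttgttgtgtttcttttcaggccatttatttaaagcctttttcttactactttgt

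Brd2, a BET protein that binds acetylated H4, had a single H4K8ac peak of 3120 bp over its start in SIT exercised and none elsewhere, and Brd8 had none.

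The scaffolds held the only region of the set found in all 3 exercised lists and in no sedentary list. Rcor1, which encodes CoREST, the scaffold that joins HDAC1 and HDAC2 to a histone demethylase (chr12:111039351-111115901, plus strand), had a Promoter class peak of 1844, 1335 and 1332 bp in the exercised SIT, left and right lists, ending 54, 214 and 357 bp before the start. No sedentary list had a peak there. This was 1 of the 137 merged H4K8ac regions of the set, where 0.104% of all 63514 regions, 66 in number, were exercised in all 3 arms and sedentary in none. By gene, Rcor1 was called gained in SIT and right separate and shared in left separate. The shared call came from another Rcor1 peak in the left sedentary list, inside the gene and 21.2 kb from an annotated start. With Promoter class peaks alone Rcor1 was gained in 3 arms, and with the widest 50% of each list in 1 arm. A further intron peak was found in SIT exercised, 46.5 kb from the assigned start, and in right exercised, 48.5 kb from it. The bases before the start covered in all 3 exercised lists ran over 1192 bp, at chr12:111037803-111038994. The central 200 are printed as the counterpart of the Kat6a and Brd9 stretches, with the TGACG in capitals (GRCm38, plus strand, chr12:111038299-111038498, 11 CG dinucleotides, 69.5% GC).
Rcor1: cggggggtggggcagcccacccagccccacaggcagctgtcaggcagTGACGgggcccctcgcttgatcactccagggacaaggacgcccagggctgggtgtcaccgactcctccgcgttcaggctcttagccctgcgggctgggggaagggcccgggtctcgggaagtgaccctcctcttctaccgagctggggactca

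**Figure D4:**
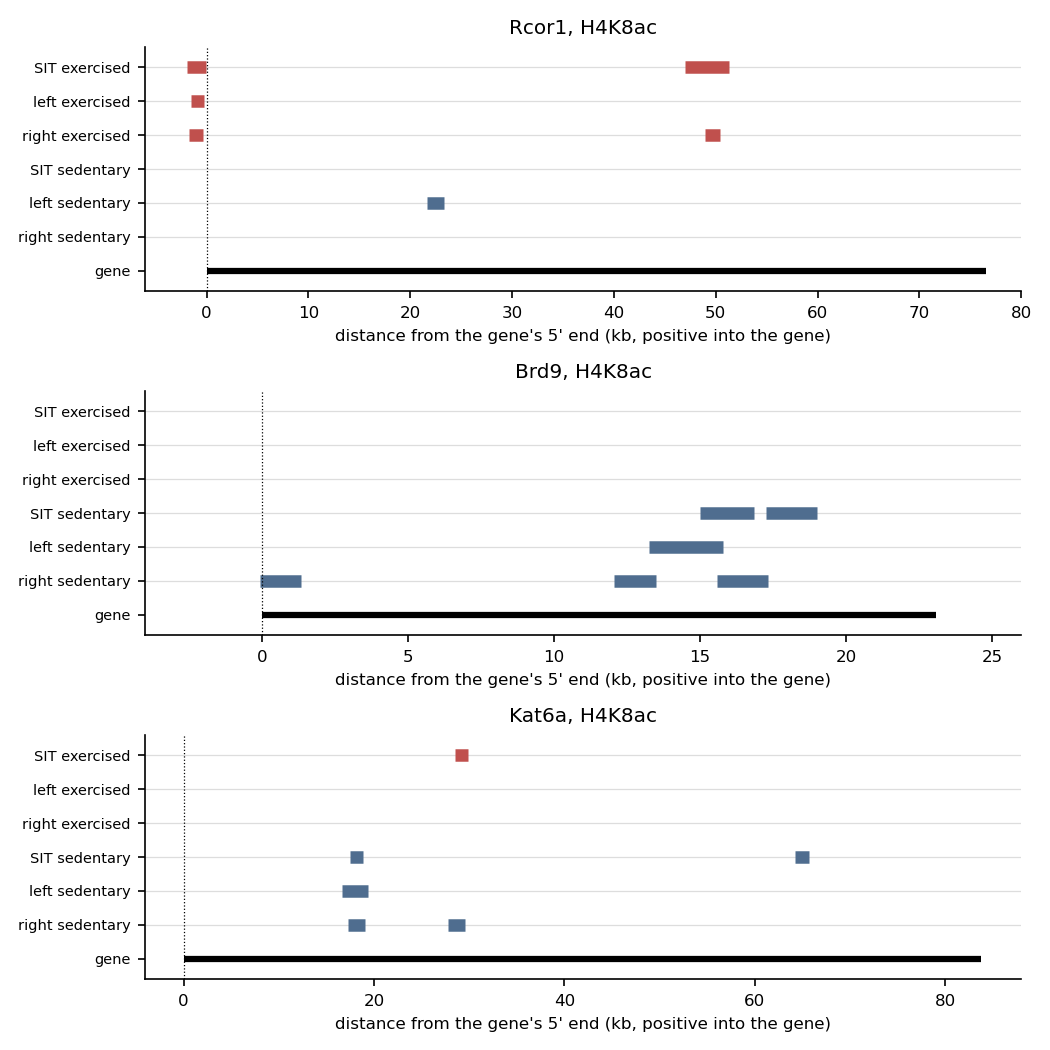
H4K8ac peaks assigned to Rcor1, Brd9 and Kat6a in the 3 exercised (red) and 3 sedentary (blue) lists, as distance in kb from the start of the gene, with the gene as a black bar. Rcor1 shows a peak just before its start in the exercised lists alone, and Brd9 and Kat6a show a region inside the gene in the sedentary lists alone.

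Ncor1, which encodes the scaffold that activates HDAC3, had 1, 0 and 0 H4K8ac peaks in the exercised SIT, left and right lists and 0, 4 and 2 in the sedentary ones. It was thus gained in SIT and lost in both separate arms, the only gene of the set with that order of calls. Its 7 peaks were 835 to 1447 bp wide, and none of the sedentary ones overlapped the exercised SIT peak. Sin3a and Sin3b, scaffolds of HDAC1 and HDAC2, had no peak assigned, although an H4K8ac peak given to Man2c1 in SIT sedentary overlapped Sin3a.

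From list to list, the set had H4K8ac regions recurring at rates near those of all genes. Of its 137 merged H4K8ac regions 71 (51.8%) were in a single list and 10 (7.30%) in all 6, beside 49.9 and 5.99% of the regions of all genes. Of the 137, 27 were in exercised lists alone and 57 in sedentary lists alone, where 19.3 and 37.6% of all H4K8ac regions were. The other 53 were found in both conditions. Of the 29 H3K27me3 regions 11 (37.9%) were in a single list and 3 (10.3%) in all 6, beside 37.5 and 16.7% of all regions. None of them was in all 3 exercised lists alone, where 0.125% of all regions were, or in all 3 sedentary lists alone, where 0.033% were. The H4K8ac peaks lay mainly within genes: 54.2% were intronic and 28.2% of the Promoter class, beside 37.4 and 23.5% of all H4K8ac peaks. Without Hdac9 the order turned, to 25.3% intronic and 43.2% Promoter class. The H3K27me3 peaks were 59.0% distal intergenic and 19.0% Promoter class, beside 45.3 and 20.3% of all H3K27me3 peaks. Of the 29 H3K27me3 regions 8 touched the gene they were assigned to, against 121 of 137 for H4K8ac, or 57 of 73 without Hdac9. The share over all regions is not given here.

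Start sites gave a narrower reading than assigned symbols. An annotated protein-coding start lay inside an H4K8ac peak in some list for 12 of the 38 genes and inside an H3K27me3 peak for 1, Kat2b. By list, 10.5 to 28.9% of the 38 genes had a start inside an H4K8ac peak, beside 6.09 to 21.5% of all protein-coding genes, and the share was above that of all genes in each of the 6 lists. The 14 genes with no peak of either mark (Hdac1, Hdac3, Hdac5, Hdac6, Sirt2, Sirt3, Kat2a, Hat1, Kat7, Crebbp, Ep300, Brd8, Sin3a and Sin3b) had a median length of 30.8 kb, close to the 33.0 kb of the whole set. Their nearest H4K8ac peak lay a median of 9.28 kb from the gene and their nearest H3K27me3 peak a median of 43.1 kb. The 5 genes with H4K8ac in all 6 lists had a median length of 191.0 kb and the 16 with it in 1 to 5 lists 28.5 kb. Across the 38 genes, gene length and the number of H4K8ac lists had a Spearman coefficient of 0.02, given as a description over genes that share the same libraries.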

How the data were processed

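H4K8ac, H3K27me3 and IgG were profiled by CUT&RUN-seq in samples labelled by condition and isolation, and the lists analysed here pool the samples of a group. Per the methods and the submitters' processing notes, the authors checked reads with FastQC 0.11.9 and aligned them to mm10 with Bowtie2 2.4.1. They called peaks with SEACR in its stringent mode, keeping a fixed top share of peaks. The authors annotated peaks with ChIPseeker 1.8.6, with a promoter window of 3 kb either side of a start, giving each peak to 1 gene. They excluded 4 exercised H4K8ac libraries, 1 of 4 in SIT and 3 of 6 in the separate arms, for a high false discovery rate, and how the libraries of a group were combined is not given in the sources used here. The deposited tables hold, per the file headers, the position and width of each peak in bp, its class, its distance to a start and a symbol. Animals were also left out on their RNA data, sedentary ones among them. The paper's captions for panels with SIT CUT&RUN data give fewer mice per condition than the sample labels. Whether the deposited lists left out the same animals is not given in the sources used here. A list from fewer or shallower libraries can hold fewer peaks. Libraries were sequenced to at least 10000000 reads, with at least 500000 uniquely mapped, but the depth behind each list is unknown, so no interval or test was computed. IgG samples have no list of their own and are not analysed here.

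Genes were matched by symbol, and coordinates and start sites came from GENCODE M21 (GRCm38, the build of the lists). Start windows and bases came from RefSeq on GRCm38, and only stretches with at most 30 bases in annotated exons were printed. Regions were merged at an overlap of at least 1 bp. The genes, the lists of related genes and the rule for named genes were chosen with earlier results of these data known. That rule took genes gained or lost in 3 arms, those with H3K27me3, those with H4K8ac in all 6 lists or in none, and those whose call in both separate arms was opposite to SIT. Sirt1, Sirt6, Kat5, Kat8, Kat6a and Rcor1 were described at length, and the Brd9, Kat6a and Rcor1 stretches printed, after their values were seen. Alternatives were Promoter class peaks alone, distal intergenic peaks left out, the widest 50% of peaks, the longer list of a pair reduced to the length of the shorter by width, overlap with the gene or 3 kb before it in place of the symbol, and a reciprocal overlap of 50%. Interval functions were tested on simulated data. Python 3.11.15 was used with numpy 2.4.6, pandas 2.3.3, scipy 1.17.1 and matplotlib 3.10.9.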

Additional observations from a re-analysis of the deposited data

Results flagged for a closer look

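The numbers of genes with a peak, and the genes gained in 1 arm and lost in another, are given here. Genes with a peak in both lists of an arm are left to the report, where the summed widths of Hdac4, Hdac9 and Kat6b for H4K8ac and of Kat2b and Brd7 for H3K27me3 also turned between arms. Each arm has a single list per condition, so none of these differences was tested. For H4K8ac, the number of the 38 genes with a peak, exercised minus sedentary, was 2 in SIT, -10 in left separate and -7 in right separate. For H3K27me3 it was 4 in SIT, 2 in left separate and -5 in right separate. The total width of all peaks of each mark turned in the same way, as given in the report. So did the numbers of all protein-coding genes with a peak. For H4K8ac these were 9025 in the exercised and 7193 in the sedentary list of SIT, 4287 and 8634 in left separate and 4846 and 6929 in right separate, and for H3K27me3 5380 and 3187, 4328 and 3886, and 2908 and 5037.

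At Sirt1 the summed H4K8ac width, exercised minus sedentary, was 1906 bp in SIT and -1270 bp in left separate, on peaks at different places in the gene. At Ncor1 it was 1282 bp in SIT, -4241 bp in left separate and -2871 bp in right separate. For H3K27me3, Hdac2 differed by 4990 bp in SIT, 1971 bp in left separate and -4258 bp in right separate, and Hdac4 by 12622 bp in SIT and -12923 bp in right separate. At Kat5 the H3K27me3 difference was 7783 bp in SIT and -8726 bp in right separate. At Brd3 it was 2174 bp in left separate and -2159 bp in right separate, on overlapping peaks. In left separate Hdac4 and Kat5 had H3K27me3 in each list, with 4363 bp in the exercised and 4901 bp in the sedentary list at Hdac4 and 4993 and 4996 bp at Kat5.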

How the results depend on the processing

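No paired analysis was possible because each list pools the libraries of its group. Of 62 recomputed counts, 43 stayed within 1.5 times the reported count and 19 did not. Counts of 0 that stayed at 0 are among the 43, and a kept count need not hold the same genes. The single gene gained for H4K8ac in right separate was Rcor1 as reported and Hdac10 with the widest 50% of each list. With equal numbers of peaks, left separate had 4 genes gained and 6 lost for H4K8ac and right separate 3 and 3. For H3K27me3 these were 2 gained in SIT, 0 gained in left separate and 2 lost in right separate. With the widest 50% of each list, 2 genes were lost for H4K8ac in right separate, and for H3K27me3 2 were gained in SIT, 1 was gained in left separate and 3 were lost in right separate. With Promoter class peaks, 1 gene, Rcor1, was gained for H4K8ac in left separate, and for H3K27me3 1 was gained in SIT, 1 was gained in left separate and 1 was lost in right separate. Without distal intergenic peaks 3 genes were lost for H3K27me3 in right separate. With overlap of the gene or 3 kb before it in place of the symbol, 2 genes were gained for H3K27me3 in SIT and 2 lost in right separate. With a reciprocal overlap of 50%, 1 H3K27me3 region was in all 6 lists. Beyond the smaller sets of peaks that these settings keep, the cause was not tested. Under all 5 settings SIT kept more genes gained than lost for both marks. The excess of lost genes in left separate for H4K8ac and in right separate for H3K27me3 stayed too. Under equal numbers, gained and lost were level for H4K8ac in right separate and for H3K27me3 in left separate.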

Other observations

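H4K8ac peaks were assigned to 19 of 32 subunits of acetyltransferase complexes, 20 of 27 subunits of deacetylase complexes and 21 of 27 other acetyl-lysine readers, and H3K27me3 peaks to 4, 1 and 2 of them. As shares, these are 59.4, 74.1 and 77.8% for H4K8ac, beside 55.3% of the 38 genes and 52.0% of all protein-coding genes, and 12.5, 3.70 and 7.41% for H3K27me3, beside 21.1 and 28.1%. The differences were not tested. H4K8ac was found in all 6 lists at 3, 4 and 8 of these genes. Among them were Ncoa2, a nuclear receptor coactivator (40 peaks over the 6 lists), Tbl1xr1, a subunit of NCoR complexes (112 peaks), Zmynd8, a bromodomain reader (64 peaks), and Dpf3, a reader of BAF complexes (56 peaks). None of the 86 genes of these 3 lists was gained or lost in all 3 arms for either mark. The lists were chosen with earlier results known, and the genes named here after their values were seen.

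In SIT, 11 subunits of acetyltransferase complexes were gained for H4K8ac and 0 lost, 57.9% of the 19 found in either list, where 27.5% of all genes were gained. In left separate 3 were gained and 6 lost (23.1 and 46.2% of 13, beside 3.58 and 51.9% of all genes), and in right separate 0 were gained and 3 lost (of 10 found in either list, beside 36.7% of all genes). Of the deacetylase subunits, 5 were gained and 3 lost in SIT (27.8% gained of 18, beside 27.5%), 1 was gained and 8 lost in left separate (53.3% lost of 15, beside 51.9%), and 2 were gained and 6 lost in right separate (42.9% lost of 14, beside 36.7%). Other acetyl-lysine readers had 3 gained and 1 lost in SIT (17.6% gained of 17), 0 and 6 in left separate (35.3% lost of 17) and 1 and 5 in right separate (33.3% lost of 15). Among 11 genes of H3K27 methylation, Aebp2, a Polycomb accessory subunit, was lost for H4K8ac in all 3 arms, beside 0.452% of all protein-coding genes. It had 3 H4K8ac peaks in all, and 115 H3K27me3 peaks over the 6 lists, summing to 584604 bp. None of the 115 was of the Promoter class, and whether they overlapped the gene is not given here.

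CG-rich starts were not uniformly marked by H4K8ac. Of the 48 RefSeq start windows of the 38 genes, 26 were in the most CG-rich of 4 equal classes of all windows, and the start of 9 of these 26 lay inside an H4K8ac peak in some list, where 35.1% of all windows of that class did. In the other classes, from the poorest up, 7.12, 15.7 and 36.5% did, so that the share did not rise from the third class to the richest. The richest windows of the set, those of Crebbp with 49 CG dinucleotides, Sirt1 with 47 and Brd3 with 46, had their start inside no peak of either mark in any list.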
